A study of Sus scrofa with 8 samples.

Results

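Transcripts of molecular chaperones and folding enzymes were compared between livers of domestic pigs (Sus scrofa) that were lactating and livers of sows that were not. The set held the genes whose deposited symbol starts with HSPA, HSPB, HSPD, HSPE, HSPH, HSP90, DNAJ, CCT and a digit, FKBP, PPIA to PPIH or PDIA. HSPA5, HSP90B1, DNAJB11 and PDIA4 were left out by name. This gave 24 genes of the 8146 with a symbol, measured by 35 of 23999 probe sets, and each gene was read from its brightest probe set, by the mean of all 8 arrays. A probe set is a group of short oligonucleotides on an Affymetrix Porcine array that together read 1 transcript. When symbols were brought up to date through identifiers, 37 further genes of the same families were found, which made 61 genes and 85 probe sets. No filter on low signal was applied, so all of them were tested.

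Each group comprised 8 sows, and RNA of 2 sows was mixed in equal amounts to make each of 4 pools, with 1 array per pool. The labels describe the animals as female and either lactating or non-lactating (control), and nothing on breed, age, parity, litter or day of lactation was used here. A pool is the replicate, so p-values measure the spread between averages of 2 animals, and the number of arrays limits the precision. All values below are log2 signals, or differences of log2 signals as lactating minus non-lactating. Signals of different genes were not set against each other, since their probes differ.

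Chaperones bind unfolded protein chains and let them reach their native shape without clumping. HSP70 proteins do so in cycles of ATP hydrolysis that J-domain proteins start and nucleotide exchange factors such as the HSP110 proteins end. HSP90 finishes the folding of kinases and steroid receptors together with cochaperones, the ring-shaped chaperonins enclose whole proteins, and prolyl and disulfide isomerases turn the bonds that limit folding. Hepatocytes, which secrete most plasma proteins, rely heavily on the forms of the endoplasmic reticulum (ER), and HSF1 drives the stress-inducible forms of the cytosol.

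The tissue carried hepatocyte RNA. The summed linear signal of 7 hepatocyte markers (ALB, APOA1, TTR, SERPINA1, TF, APOB and AHSG) was 178160 to 184170 in non-lactating and 180420 to 184180 in lactating pools. Of the 7, 1 was lower past the threshold (limma, adjusted p below 0.05), and 4 differences were positive and 3 negative. The summed signal of 6 endothelial markers was 2105.5 to 2342.1 in non-lactating and 1554.8 to 1769.3 in lactating pools, with 4 of the 6 lower past the threshold. That of 6 stellate cell or fibroblast markers was 9076.6 to 10436 against 6044.2 to 8732.1. Of the 6, 2 were lower past the threshold, and 4 differences were negative and 2 positive. Of 5 T and NK cell markers 1 was lower, the sum running from 368.37 to 452.39 against 298.3 to 347.24, and none of 5 macrophage markers passed. In bulk tissue, fewer cells of a type and less RNA per cell cannot be told apart. The part of these markers in the differences below was not tested. The signal of 3′ probe sets over 5′ probe sets of GAPDH, actin and EF1a, a measure of RNA integrity and of labelling, averaged 4.47 ± 0.40 (SD, n = 4) in non-lactating and 3.75 ± 0.29 (SD, n = 4) in lactating pools on the log2 scale. Its ranges, 4.14 to 5.02 and 3.34 to 4.00, did not overlap, with the highest value in non-lactating pool 1 and the lowest in lactating pool 4.

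Chaperone and folding-enzyme transcripts were mostly higher in lactating livers. The smallest p-values of the set belonged to the HSP90 partner FKBP4, the HSP70 exchange factor HSPA4, the ribosome-linked J-domain protein DNAJC21 and the chaperonin subunit CCT2, and the largest differences to HSPH1 and DNAJA1, which missed the threshold. Of the 24 genes, 21 had a positive difference and 7 rose (limma, adjusted p below 0.05): CCT2, CCT7, DNAJC21, FKBP4, FKBP7, HSPA4 and PPIA. That is 29.2% of the set, where 6.14% of all genes rose. None of the 24 fell, where 2.52% of all genes fell. The median difference of the set was 0.30 (range -0.28 to 0.80), against 0.01 over all genes, of which 52.6% were positive. All 4 lactating pools lay above all 4 non-lactating pools in 12 of the 24 genes, where 12.9% of all genes did so, and below them in 2 genes, DNAJC14 and DNAJC19, where 6.51% of all genes did so.

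The count depended on single pools. It was 4 without non-lactating pool 1 or 4 or lactating pool 1, 3 or 4, and 5 without any other single pool; CCT2, DNAJC21, FKBP4 and HSPA4 passed in all 8 of these fits. Leaving out 1 pool also lowered the count over all probe sets, from 1643 to between 406 and 1424. With the 3′ minus 5′ measure as a covariate none of the 23999 probe sets passed (limma, lowest adjusted p = 0.155), and so none of the 24. Of the 24, 6 had an unadjusted p below 0.05 in that fit, 19 remained positive and the median was 0.17.

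**Figure D1:**
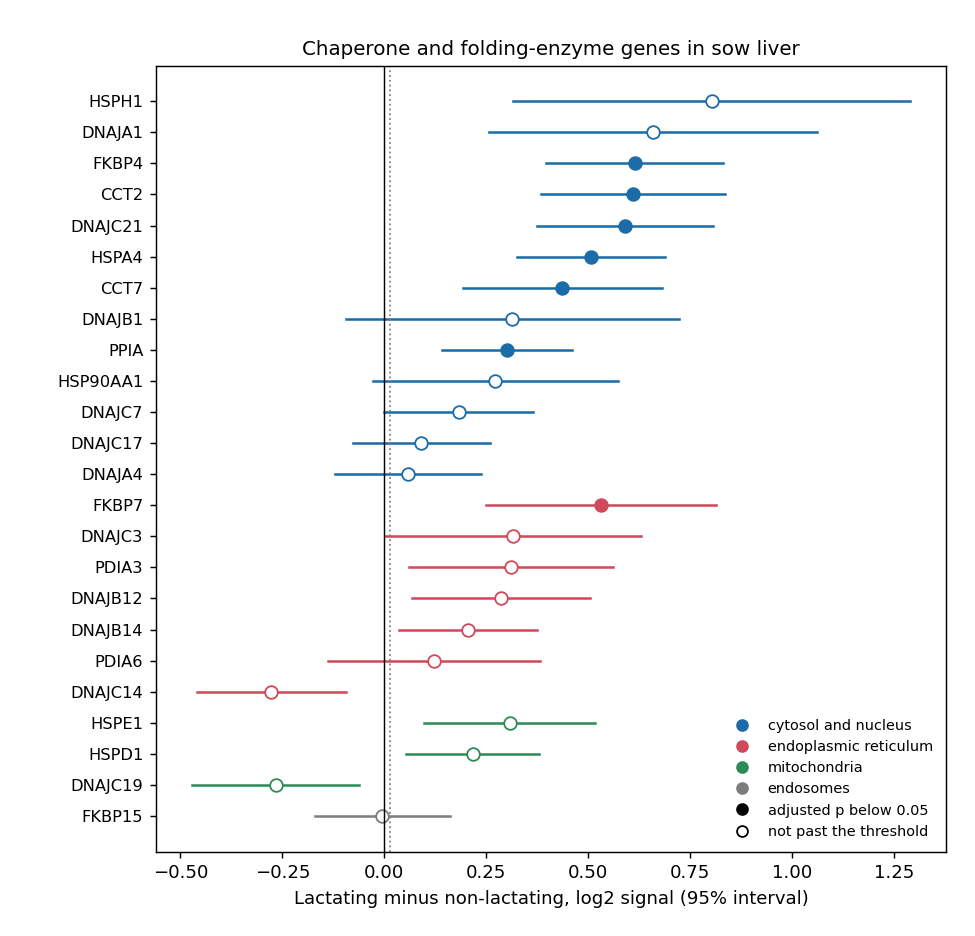
Difference of log2 signal, lactating minus non-lactating pools (horizontal axis), for the 24 genes by deposited symbol, coloured by compartment, with 95% intervals from limma; filled points have an adjusted p below 0.05 and the dotted line is the median of all genes, 0.01. All 13 genes of cytosol and nucleus lie right of 0, 6 of them filled, and DNAJC14 and DNAJC19 lie left of 0 with intervals that exclude it.

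The chaperonin CCT, a double ring in the cytosol that folds actin and tubulin, rose in all 4 subunits of the set by either symbol. CCT2 encodes the beta subunit, and its probe set aligned to chromosome 5, 32705577 to 32717717, on the plus strand (positions are those of the deposited alignments, whose assembly is not named in words). CCT2 signals were 10.20, 10.54, 10.49 and 10.38 in non-lactating pools 1 to 4 and 10.87, 10.94, 11.05 and 11.19 in lactating pools 1 to 4. The groups did not overlap, non-lactating pool 1 was the lowest of the 8 pools and lactating pool 4 the highest. The difference was 0.61 ± 0.10 (SE), a 1.53-fold rise (limma, adjusted p = 0.0139). The CCT2 probe set is listed in the deposited table under a second symbol as well, LOC100518374.

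CCT7, the eta subunit (chromosome 3, 63887997 to 63907389, minus strand), read 9.13, 9.64, 9.54 and 9.44 in non-lactating pools and 9.80, 9.92, 9.89 and 9.88 in lactating pools. The lactating pools lay close together and above all non-lactating ones, of which pool 1 was low. CCT7 rose by 0.44 ± 0.11 (limma, adjusted p = 0.0426), a call that held without non-lactating pool 2 and was lost without any other single pool, at adjusted p up to 0.0968. CCT3 and CCT4, the gamma and delta subunits, carry these symbols only after the update. CCT3 gave 8.08, 8.48, 8.58 and 8.40 against 8.81, 9.08, 9.34 and 9.44, and CCT4 gave 10.50, 10.68, 10.90 and 10.80 against 10.98, 11.14, 11.20 and 11.35. Neither gene overlapped between the groups, both were lowest in non-lactating pool 1 and highest in lactating pool 4, and CCT3 rose by 0.79 ± 0.15 (limma, adjusted p = 0.0203) and CCT4 by 0.45 ± 0.11 (limma, adjusted p = 0.0396). The CCT3 call was lost without non-lactating pool 1 or 4 or lactating pool 3 or 4 (adjusted p up to 0.0561), and the CCT4 call held only without non-lactating pool 3 or lactating pool 1 (otherwise up to 0.101). After cyclic loess normalisation the calls of CCT7 (adjusted p = 0.0675) and CCT4 (adjusted p = 0.0814) were lost. With the 3′ minus 5′ covariate the differences were 0.33 for CCT2, 0.35 for CCT3, 0.17 for CCT4 and 0.18 for CCT7, and none passed (limma, adjusted p = 0.385 to 0.691).

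Among partners of the chaperonin, 2 of 7 measured genes of a list of 10 rose, 5 were positive and their median was 0.19. Over all genes 6.14% rose and 52.6% were positive. TCP1, the alpha subunit of the same ring, rose by 0.39 ± 0.09 (limma, adjusted p = 0.0365), so that all 5 ring subunits with a named probe set passed. PFDN4, a subunit of prefoldin, which hands actin and tubulin chains to the ring, rose by 0.30 ± 0.07 (limma, adjusted p = 0.0346). PDCL3, a phosducin-like cofactor of the ring, had a difference of -0.30 ± 0.08 (limma, adjusted p = 0.0550).

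**Figure D2:**
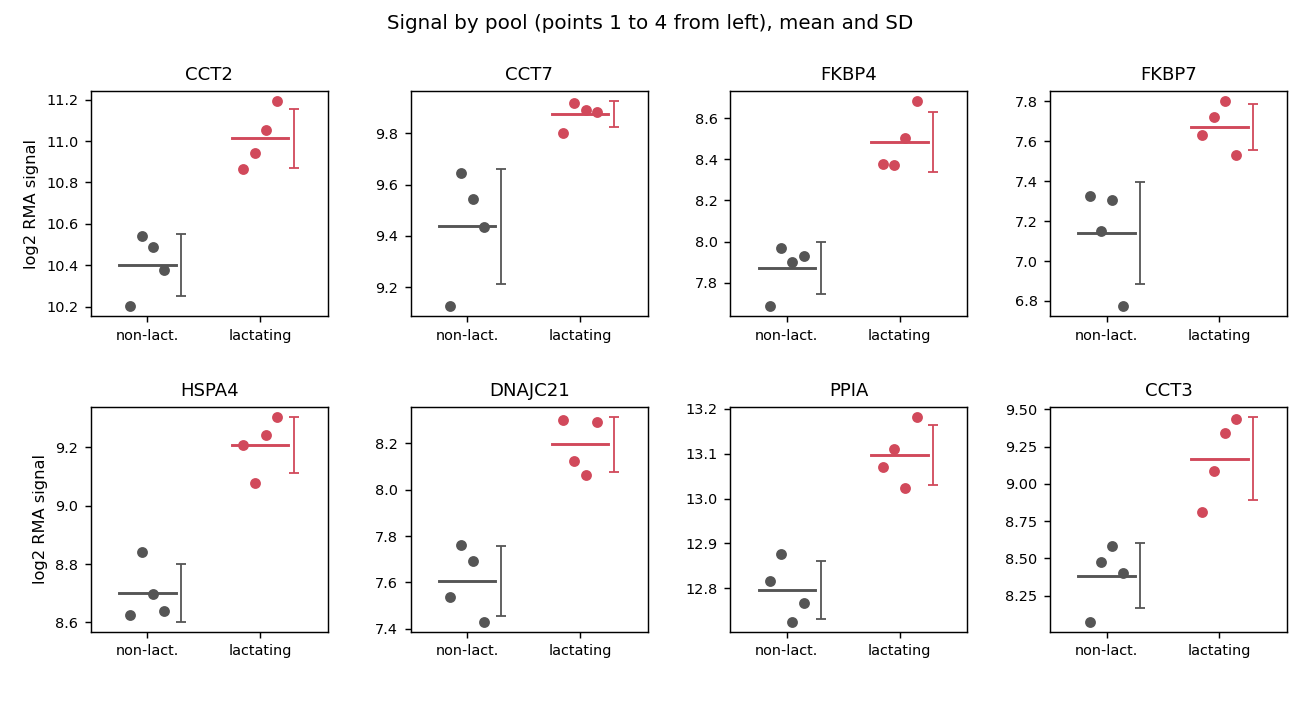
Log2 RMA signal (vertical axes, each with its own range) in the 4 non-lactating (grey) and 4 lactating (red) pools, points in pool order from left, with the group mean (horizontal line) and SD (bar at right), for the 7 genes by deposited symbol that rose and CCT3. In each panel every lactating point lies above every non-lactating point.

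Of the HSP70 machinery, HSPA4 and HSPH1 belong to the HSP110 branch, whose members release nucleotide from HSP70. HSPA4 (chromosome 2, 123286902 to 123299672, plus strand) read 8.63, 8.84, 8.70 and 8.64 in non-lactating and 9.21, 9.08, 9.24 and 9.31 in lactating pools. The gap between the groups was wide beside the spread within them, and HSPA4 rose by 0.51 ± 0.08, or 1.42-fold (limma, adjusted p = 0.0133). A second HSPA4 probe set gave 0.50 ± 0.10 (limma, adjusted p = 0.0256), and the dimmest, of mean signal 5.45, gave 0.09 ± 0.10.

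HSPH1, the heat-inducible member of the branch, had the largest difference of the 24 genes and missed the threshold. Its signals were 9.01, 9.47, 9.50 and 9.06 in non-lactating and 9.81, 9.55, 10.30 and 10.59 in lactating pools. Lactating pools 3 and 4 were high, whereas lactating pool 2 lay just above the highest non-lactating pool. The difference was 0.80 ± 0.22, with a 95% interval of 0.32 to 1.29 (limma, adjusted p = 0.0559). It passed without lactating pool 2 (0.97, adjusted p = 0.0376) and was 0.63 without lactating pool 4 (adjusted p = 0.115). By either symbol 5 of 6 HSP70 and HSP110 genes were positive and 1 rose (16.7%, against 6.14% of all genes). The negative gene was HSPA6, deposited as HSP70, with group means of 5.94 and 5.69. Its difference was -0.25 ± 0.12 (limma, adjusted p = 0.272).

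DNAJA1 and DNAJB1, classical J-domain partners of cytosolic HSP70, were lowest in non-lactating pool 1 and highest in lactating pool 4. Other cytosolic members of these classes had other peaks, such as DNAJA2 (9.55) and DNAJB6 (10.03) in lactating pool 3. DNAJA1 read 9.92, 10.52, 10.66 and 10.42 in non-lactating and 10.84, 10.86, 10.999 and 11.46 in lactating pools. The groups did not overlap, and the extremes were again non-lactating pool 1 and lactating pool 4; the difference was 0.66 ± 0.18 (limma, adjusted p = 0.0568). A second DNAJA1 probe set gave 0.23 ± 0.14 (limma, adjusted p = 0.367), with overlap. DNAJB1, which is induced by heat shock, read 9.62, 9.89, 10.26 and 9.70 against 9.92, 10.01, 10.13 and 10.67. The groups overlapped, only lactating pool 4 lay above non-lactating pool 3, and the difference was 0.31 ± 0.18 (limma, adjusted p = 0.351). With the 3′ minus 5′ covariate, whose extremes are the same 2 pools, the difference was 0.16 for HSPH1, 0.04 for DNAJA1 and -0.23 for DNAJB1, while that of HSPA4 was 0.36.

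DNAJC21, a J-domain protein that acts in maturation of the large ribosomal subunit, differed from these in its pool pattern. On chromosome 16 (18078394 to 18089652, plus strand) it read 7.54, 7.76, 7.69 and 7.43 in non-lactating and 8.30, 8.13, 8.06 and 8.29 in lactating pools. Lactating pools 1 and 4 were highest, non-lactating pool 4 was lowest and the groups were clearly apart. DNAJC21 rose by 0.59 ± 0.10, or 1.5-fold (limma, adjusted p = 0.0135), and the difference was 0.44 with the 3′ minus 5′ covariate (adjusted p = 0.381). It was the only one of 11 J-domain genes by deposited symbol to rise (9.09%), and their median difference was 0.20. By either symbol 1 of 23 J-domain genes rose, or 4.35%, near the 6.14% of all genes.

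The remaining cytosolic and nuclear J-domain genes differed little. DNAJC7, which binds both HSP70 and HSP90 through its TPR repeats, had a difference of 0.18 ± 0.08 (limma, adjusted p = 0.221). DNAJC17, a nuclear protein, gave 0.09 ± 0.08 and DNAJA4, which lay at a mean signal of 5.74 in non-lactating pools, gave 0.06 ± 0.08. By updated symbol DNAJA2, a further partner of constitutive HSP70, had a difference of 0.25 ± 0.10 (limma, adjusted p = 0.176), and DNAJB6, which keeps polyglutamine proteins from aggregating, 0.23 ± 0.10 (limma, adjusted p = 0.183). DNAJC12, a partner of aromatic amino acid hydroxylases, was the most variable, from 9.74 to 10.74 in non-lactating and from 9.57 to 11.02 in lactating pools, with a difference of 0.17 ± 0.31.

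HSP90 itself did not pass the threshold, and its helpers were mixed. HSP90AA1, the inducible cytosolic form, read 12.52, 12.74, 12.79 and 13.08 in non-lactating and 12.93, 12.90, 13.04 and 13.34 in lactating pools. Only lactating pool 4 exceeded non-lactating pool 4, and the difference was 0.27 ± 0.13 (95% interval -0.03 to 0.57; limma, adjusted p = 0.263). HSP90AB1, the constitutive form, named by updated symbol, gave 0.19 ± 0.10 (limma, adjusted p = 0.298), and both HSP90 differences were close to 0 with the 3′ minus 5′ covariate (-0.03 and -0.02).

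FKBP4, a prolyl isomerase that joins HSP90 on steroid receptors, lay on chromosome 5 (63189099 to 63197310, minus strand). Its signals were 7.68, 7.97, 7.90 and 7.93 in non-lactating and 8.38, 8.37, 8.51 and 8.68 in lactating pools. The lowest lactating pool exceeded the highest non-lactating pool by more than either group's SD (0.13 and 0.15), and FKBP4 rose by 0.61 ± 0.10, or 1.53-fold (limma, adjusted p = 0.0127), the smallest p of the 61 genes. PPID, the cyclophilin found in the same receptor complexes, named by updated symbol, had a difference of 0.31 ± 0.08 with no overlap (limma, adjusted p = 0.0523).

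In a list of 21 other cochaperones of HSP70 and HSP90, 14 were measured, 10 were positive, 3 rose and none fell, with a median of 0.26. Of all genes 52.6% were positive, 6.14% rose and 2.52% fell. AHSA1, the activator of the HSP90 ATPase, rose by 0.45 ± 0.10 (limma, adjusted p = 0.0279). NUDC, an HSP90-associated protein, rose by 0.39 ± 0.10 (limma, adjusted p = 0.0437), and CACYBP, a protein with an HSP90-binding fold, by 0.30 ± 0.07 (limma, adjusted p = 0.0323). In 6 of the 14 genes, these 3 among them, all lactating pools lay above all non-lactating pools, where 12.9% of all genes did so. HSP90 cochaperones of the list that did not pass included PTGES3, at 0.36 ± 0.11 (limma, adjusted p = 0.0857), and CDC37, at 0.22 ± 0.10 (limma, adjusted p = 0.246). TTC4 (0.16), TOMM34 (-0.02) and UNC45A (-0.07) did not pass either. Of the regulators of the response, HSF1, its main transcription factor, gave 0.03 ± 0.08, and the transcript deposited as HSBP1, a binding partner of HSF1 that the current gene table lists as HSBP1P, gave 0.28 ± 0.08 (limma, adjusted p = 0.0652).

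Cyclophilins and FK506-binding proteins outside the HSP90 complex differed by member. PPIA, the abundant cytosolic target of cyclosporin (chromosome 18, 49044572 to 49048108, plus strand), read 12.82, 12.88, 12.73 and 12.77 in non-lactating and 13.07, 13.11, 13.02 and 13.18 in lactating pools. The shift was small but exceeded the SDs of 0.06 and 0.07, and PPIA rose by 0.30 ± 0.07, or 1.23-fold (limma, adjusted p = 0.0365). The PPIA call was lost when any 1 of the 8 pools was left out, at differences of 0.27 to 0.33 (limma, adjusted p = 0.0503 to 0.0957). It was also lost after cyclic loess normalisation (limma, adjusted p = 0.0836). With the 3′ minus 5′ covariate the PPIA difference was 0.28 and did not pass (limma, adjusted p = 0.461). Of the 7 cyclophilins by either symbol, PPIA alone rose; a probe set titled peptidylprolyl isomerase B, whose symbol is still LOC100154783, rose by 0.46 ± 0.10 (limma, adjusted p = 0.0284) and is not counted among them. PPIG, a nuclear form linked to splicing, had the lowest difference of the 7 (-0.30 ± 0.15; limma, adjusted p = 0.267). Of the 9 FK506-binding proteins 2 rose, FKBP4 and FKBP7, and the median of the 9 was 0.07. FKBP2, an ER form named by updated symbol and the brightest of the 9, gave 0.09 ± 0.09 (limma, adjusted p = 0.639). The share that rose was 14.3% of the 7 cyclophilins and 22.2% of the 9 FK506-binding proteins, against 6.14% of all genes.

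The small heat shock proteins, which hold unfolded chains without ATP, had no deposited symbol that meets the rule and were found by updated symbol only. None of 5 passed, where 6.14% of all genes rose and 2.52% fell, and their median was 0.01, the lowest of any family. HSPB1 read 8.44, 8.78, 8.83 and 8.97 in non-lactating and 8.76, 8.55, 8.67 and 9.07 in lactating pools, with full overlap and a difference of 0.01 ± 0.14. HSPB6, known from muscle, was lower in all lactating pools, at 6.76 ± 0.05 against 6.49 ± 0.14 (SD, n = 4 pools each), and its difference of -0.26 ± 0.09 missed the threshold (limma, adjusted p = 0.0950). HSPB8, which works with BAG3 in selective autophagy, gave 0.19 ± 0.14 (limma, adjusted p = 0.460).

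**Figure D3:**
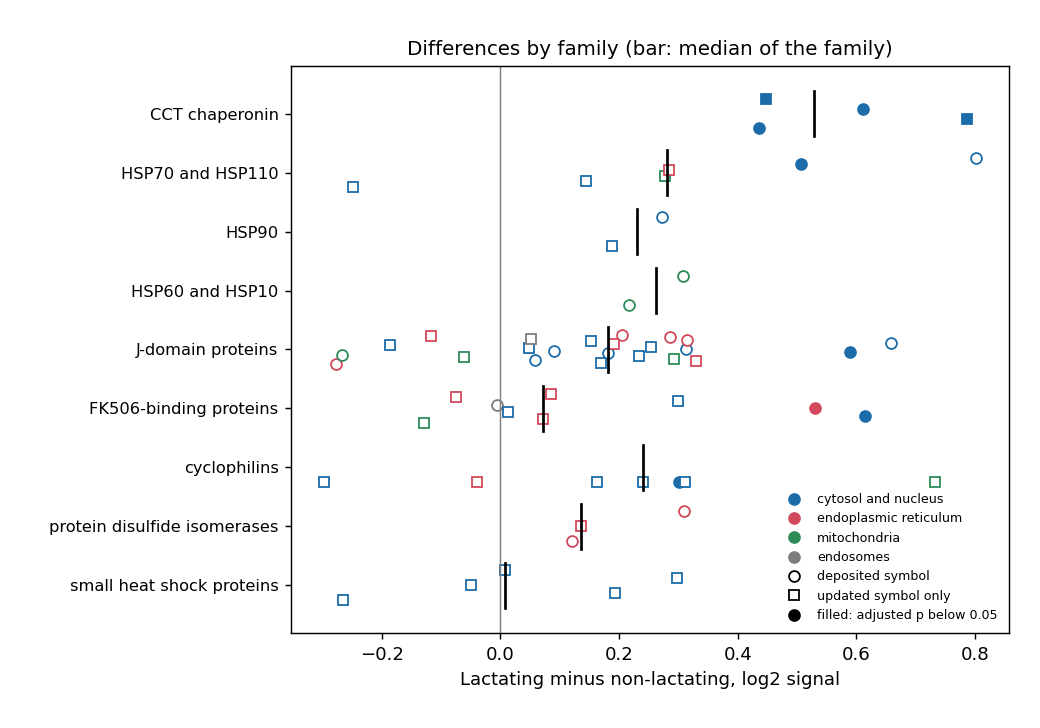
Difference of log2 signal, lactating minus non-lactating (horizontal axis), for the 61 genes by family; circles are genes by deposited symbol, squares those by updated symbol only, colours give the compartment, filled symbols have an adjusted p below 0.05 and black bars are family medians. All 4 CCT genes are filled, and the family medians run from 0.01 for the small heat shock proteins to 0.53 for the chaperonin.

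In mitochondria, HSPD1 and HSPE1 form the chaperonin HSP60 and its lid HSP10. Their probe sets aligned to chromosome 15, at 94899838 to 94901780 on the minus strand and 94913697 to 94915910 on the plus strand, so that 11916 bases separate the 2 alignments and the genes point away from each other. HSPD1 read 13.30, 13.46, 13.36 and 13.40 in non-lactating and 13.62, 13.52, 13.56 and 13.70 in lactating pools. HSPE1 read 13.03, 13.33, 13.18 and 13.00 against 13.47, 13.46, 13.31 and 13.53. HSPD1 did not overlap between the groups, HSPE1 overlapped in 1 pair of pools, and both were highest in lactating pool 4. The differences were 0.22 ± 0.07 for HSPD1 (limma, adjusted p = 0.109) and 0.31 ± 0.09 for HSPE1 (limma, adjusted p = 0.0802).

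DNAJC19, a J-domain protein of the import motor of the inner membrane, ran the other way, from 10.39 to 10.60 in non-lactating and from 10.04 to 10.36 in lactating pools. The groups did not overlap, and its difference of -0.27 ± 0.09 missed the threshold (limma, adjusted p = 0.113). HSPA9, the mitochondrial HSP70 named by updated symbol, had a difference of 0.28 ± 0.08 at its brightest probe set (limma, adjusted p = 0.0571), and its next probe set passed, at 0.58 ± 0.10 (limma, adjusted p = 0.0177). PPIF, the cyclophilin of the permeability transition pore, read 10.02, 9.72, 10.01 and 10.29 against 10.10, 10.86, 11.41 and 10.60, with lactating pool 1 inside the non-lactating range and a difference of 0.73 ± 0.24 (limma, adjusted p = 0.0983). None of 8 mitochondrial genes by either symbol passed at its brightest probe set, where 6.14% of all genes rose and 2.52% fell. In a list of 14 other mitochondrial chaperones and proteases, all 6 measured were positive and 3 rose, where 52.6% of all genes were positive and 6.14% rose. CLPX, the unfoldase of the matrix protease, rose by 0.48 ± 0.10 (limma, adjusted p = 0.0274). PMPCB, a subunit of the peptidase that removes import signals, rose by 0.44 ± 0.09 (limma, adjusted p = 0.0253). HTRA2, a protease of the intermembrane space, rose by 0.30 ± 0.08 (limma, adjusted p = 0.0455).

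In the ER, 6 of 7 genes by deposited symbol were positive, 1 rose (14.3%, against 6.14% of all genes) and their median difference was 0.29. By either symbol 12 of 16 ER genes were positive and their median was 0.16. Of these 16, 1 rose, or 6.25%, near the 6.14% of all genes. FKBP7, a prolyl isomerase of the ER lumen (chromosome 15, 79123251 to 79137551, minus strand), read 7.33, 7.15, 7.31 and 6.77 in non-lactating and 7.63, 7.72, 7.80 and 7.53 in lactating pools. Non-lactating pool 4 was low and the groups did not overlap. FKBP7 rose by 0.53 ± 0.13, or 1.44-fold (limma, adjusted p = 0.0364). The call held without non-lactating pool 3 and was lost without any other single pool, at differences of 0.41 to 0.59 (limma, adjusted p up to 0.0872). With the 3′ minus 5′ covariate the FKBP7 difference was 0.63 and did not pass (limma, adjusted p = 0.377).

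PDIA3, the disulfide isomerase that works with calnexin and calreticulin on glycoproteins, read 12.04, 12.17, 12.23 and 12.05 in non-lactating and 12.73, 12.48, 12.26 and 12.27 in lactating pools. The groups did not overlap, but lactating pools 3 and 4 lay just above non-lactating pool 3, and the difference was 0.31 ± 0.11 (limma, adjusted p = 0.129). PDIA6, a second disulfide isomerase, read 12.20, 12.21, 12.22 and 12.14 against 12.66, 12.21, 12.08 and 12.31. The non-lactating pools of PDIA6 were nearly equal, lactating pool 1 stood above the rest, and the difference was 0.12 ± 0.12 (limma, adjusted p = 0.597). Without lactating pool 1 it was 0.0052.

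The ER J-domain genes were mixed. DNAJC3, a lumenal partner of BiP that also restrains the kinase PERK, had a difference of 0.32 ± 0.14 (limma, adjusted p = 0.216), and the ER-membrane proteins DNAJB12 and DNAJB14 gave 0.29 ± 0.10 and 0.20 ± 0.08. DNAJC14, a J-domain protein of the ER membrane, read 8.12, 8.14, 8.15 and 8.29 in non-lactating and 7.86, 8.003, 7.97 and 7.75 in lactating pools. All its lactating pools were lower, and its difference of -0.28 ± 0.08 missed the threshold (limma, adjusted p = 0.0729). A dimmer DNAJC14 probe set, of mean signal 5.92, had the opposite sign, 0.06 ± 0.11 (limma, adjusted p = 0.787). DNAJB9, an unfolded protein response gene named by updated symbol, gave 0.19 ± 0.14 at its brightest probe set (0.075 without lactating pool 1) and 0.90 ± 0.18 at its dimmest, where it passed (limma, adjusted p = 0.0226).

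The 4 ER chaperones left out by name had a median difference of 0.45: HSPA5 (BiP) 0.25 ± 0.10 (limma, adjusted p = 0.167), HSP90B1 0.50 ± 0.10 (limma, adjusted p = 0.0229), DNAJB11 0.70 ± 0.14 (limma, adjusted p = 0.0214) and PDIA4 0.40 ± 0.12 (limma, adjusted p = 0.0754). In a list of 25 other ER folding and quality control genes, 14 were measured, 12 were positive, 4 rose and none fell, with a median of 0.29. Over all genes 52.6% were positive, 6.14% rose and 2.52% fell. SEC61A1, the channel of the translocon, rose by 0.67 ± 0.11 (limma, adjusted p = 0.0127) and ERP44, a thiol-retention protein, by 0.60 ± 0.11 (limma, adjusted p = 0.0181). MANF and CRELD2, secreted proteins induced by ER stress, rose by 0.65 ± 0.14 (limma, adjusted p = 0.0256) and 0.89 ± 0.19 (limma, adjusted p = 0.0261). In the endosomes FKBP15 alone had a deposited symbol, and its difference was -0.01 ± 0.07.

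Across pools, cytosolic genes most often peaked in lactating pool 4 and ER genes in lactating pools 1 and 2. Of the 13 cytosolic and nuclear genes by deposited symbol, all were positive, 6 rose (46.2%, against 6.14% of all genes) and the median was 0.44. By either symbol 30 of 35 cytosolic and nuclear genes were positive, 8 rose (22.9%) and the median was 0.23. Of the 13, 10 were highest in lactating pool 4 (76.9%, against 22.2% of all genes) and 9 were lowest in non-lactating pool 1 (69.2%, against 30.1% of all genes). The other 3, DNAJC21, DNAJC17 and CCT7, peaked in lactating pools 1 (2 genes) and 2 (1 gene). None of the 7 ER genes was highest in lactating pool 4. They peaked in pool 1 (3 genes), pool 2 (3 genes) or pool 3 (1 gene), and all 4 ER chaperones left out by name peaked in pool 1. Among all 61 genes, lactating pool 4 held the peak of 18 of 35 cytosolic and nuclear genes and of 1 of 16 ER genes, and pools 1 and 2 held the peak of 7 and 5 of the 35 and of 6 and 6 of the 16. Median differences of single lactating pools from the non-lactating mean were 0.36, 0.31, 0.45 and 0.60 in pools 1 to 4 for the 13 cytosolic genes and 0.47, 0.36, 0.09 and 0.16 for the 7 ER genes. These are descriptions over genes that share the same arrays. Lactating pool 4 and non-lactating pool 1 are also the extremes of the 3′ minus 5′ measure, whose part in the order of pools was not tested.

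**Figure D4:**
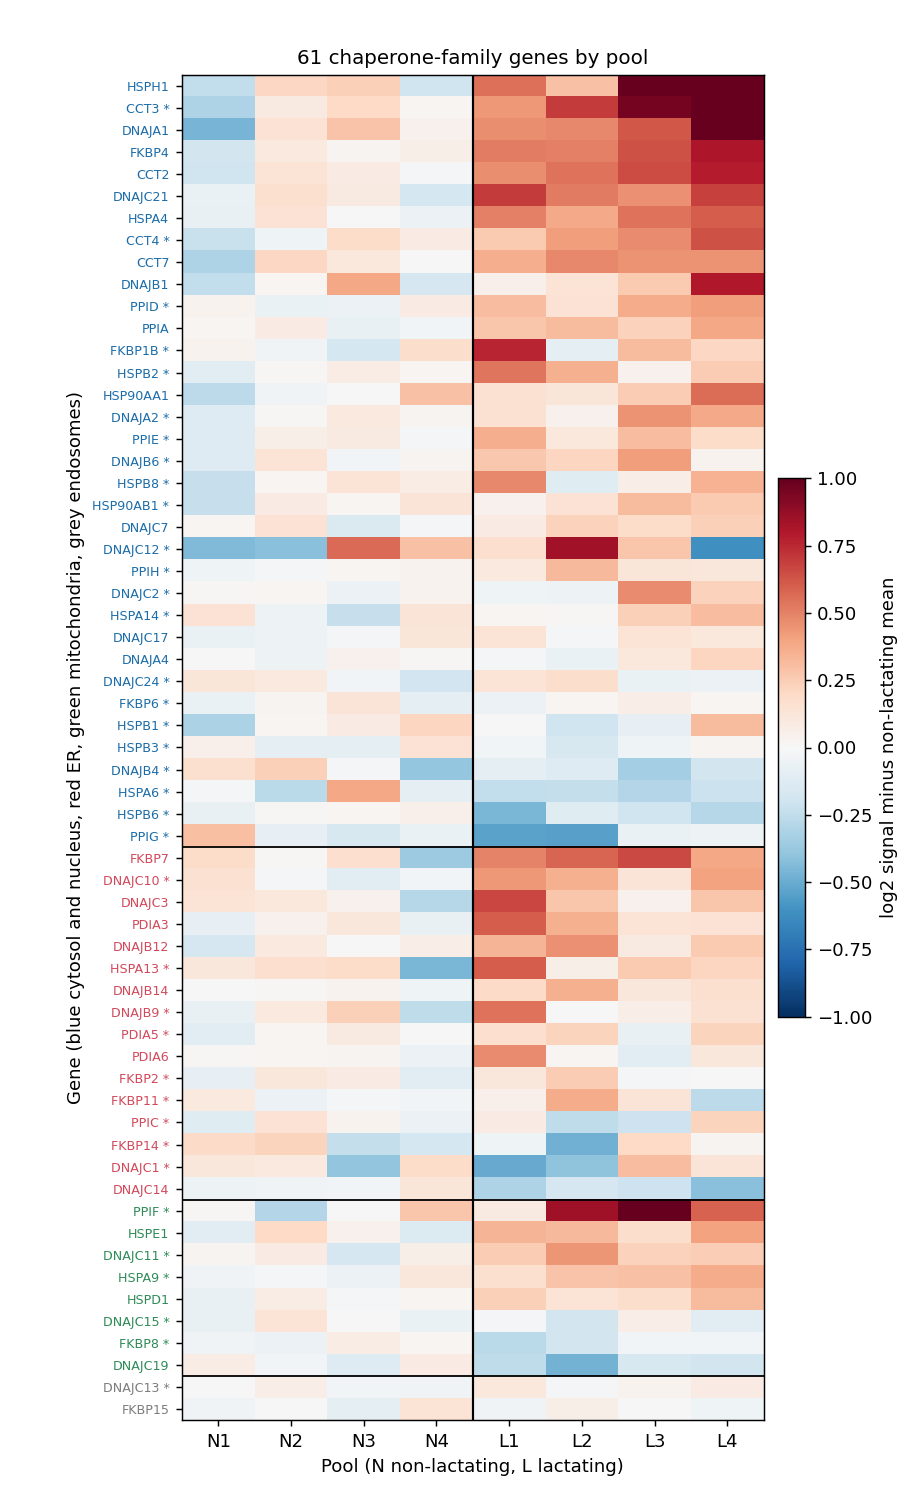
Log2 signal minus the non-lactating mean of the gene (colour, limited to -1 to 1) in non-lactating pools N1 to N4 and lactating pools L1 to L4 for the 61 genes, grouped by compartment and ordered by difference; an asterisk marks genes found by updated symbol only. The top cytosolic rows are deepest in L4 and palest or blue in N1, and most upper ER rows below FKBP7 are deepest in L1 or L2.

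The choice of symbol and of probe set mattered for the counts. The 37 genes found by updated symbol only had 27 positive differences, a median of 0.15 and 2 that rose, CCT3 and CCT4, or 5.41%, close to the 6.14% of all genes. With all 61 genes, 48 were positive, 9 rose (14.8%), none fell and the median was 0.19. Of the 11 further probe sets of 8 genes by deposited symbol, 8 had the sign of the brightest. Probe sets of a gene were read on the same arrays, so their signs are not independent. Of the 11, 2 passed, where 1643 of all 23999 probe sets passed. The 2 were the second HSPA4 probe set and a PDIA3 probe set. That PDIA3 probe set, of mean signal 6.74, read 6.09, 6.44, 6.52 and 6.14 in non-lactating and 7.55, 6.85, 6.88 and 7.46 in lactating pools, a difference of 0.88 ± 0.18 (limma, adjusted p = 0.0227). It did not overlap between the groups, and its difference was larger than the 0.31 of the brightest PDIA3 probe set.

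**Figure D5:**
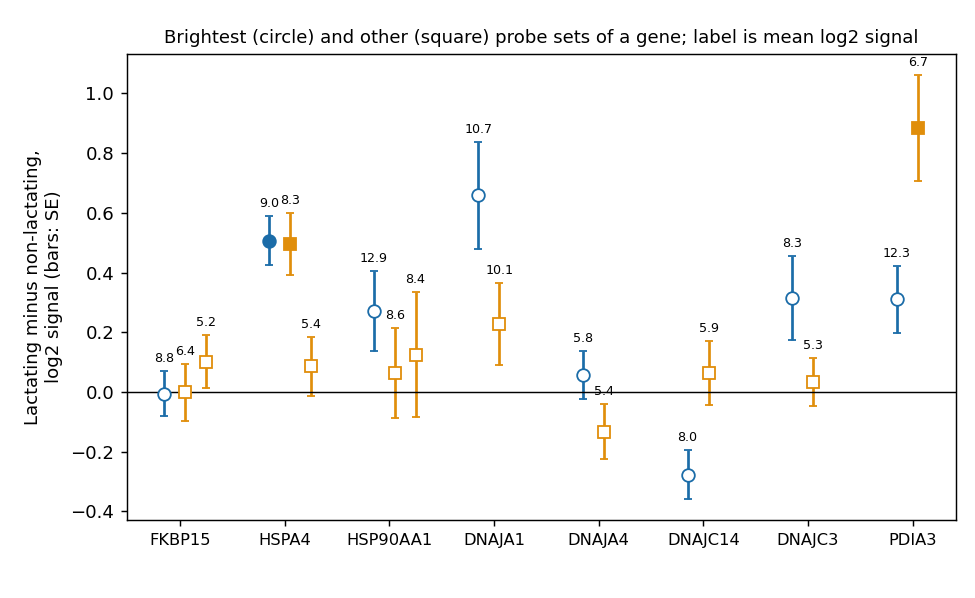
Difference of log2 signal with SE (vertical axis) for the brightest probe set (blue circle) and the other probe sets (orange squares) of the 8 genes by deposited symbol that have several; the number at each point is its mean log2 signal and filled points have an adjusted p below 0.05. The 2 brighter HSPA4 probe sets give 0.51 and 0.50, and the dimmer PDIA3 probe set gives 0.88 against 0.31.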

How the data were processed

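Deposited by the authors were log2 signals for 24123 probe sets, made with Affymetrix Expression Console and RMA per the submitters' processing notes, versions not given in the sources used here. From these, 124 control probe sets were left out and 23999 were fitted (limma 3.58.1 in R 4.3.3, lmFit and eBayes, 8 arrays, 2-sided, Benjamini-Hochberg over all probe sets, threshold 0.05). All adjusted p-values are from this fit unless another is named. RMA makes arrays share 1 distribution, so differences are relative to the average transcript. The 8 deposited columns of ratios between single pools were not used.

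Symbols were updated through Entrez identifiers (9067 probe sets) and RefSeq transcripts (29) of the Sscrofa11.1 gene table. Members, partner lists, markers and compartments (from textbook knowledge) were chosen with earlier results of these data known. Named were all members past the threshold, the member with the smallest p and the brightest member of each family, a list of well-known members, and from each partner list the genes past the threshold or else the smallest p. DNAJC7, DNAJC17, DNAJA2, DNAJA4, DNAJB6, DNAJB12, DNAJB14, DNAJC12, DNAJC14, DNAJC19, HSPB6, PPIG, FKBP15 and PDCL3 were chosen after their values were seen where that rule did not take them. The same holds for PTGES3, CDC37, TTC4, TOMM34, UNC45A and HSPA6. The fit was tested on simulated data. Alternatives were another normalisation, a filter on dim probe sets, other variance models, a replicate block, the 3′ minus 5′ covariate, each pool left out, other symbols and other probe set rules. Sequences were not used here. One of the marker lists is not reported here.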

Additional observations from a re-analysis of the deposited data

Results flagged for a closer look

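All 61 genes by either symbol were examined for a pool apart from the other pools of its group, which gave 122 groups of 4 pools. In 5 of them 1 pool stood apart, where chance alone flags about 1 in 20 groups. DNAJC14 read 8.29 in non-lactating pool 4, while the other non-lactating pools lay between 8.12 and 8.15, and its lactating pools lay below all of these. HSPA13, an HSP70 of the ER, read 9.43 in non-lactating pool 4, against 9.998 to 10.07 in the other 3. DNAJC1, a J-domain protein of the ER membrane, read 9.78 in non-lactating pool 3, against 10.27 to 10.36. In lactating pool 2, PPIH, a cyclophilin of the spliceosome, read 7.96 against 7.74 to 7.76, and DNAJC11, a mitochondrial J-domain protein, read 9.08 against 8.87 to 8.89.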

How the results depend on the processing

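Counts of changed members were 0 with the 3′ minus 5′ covariate (6 at an unadjusted p below 0.05) and 0 with the equal-variance test per probe set (17 unadjusted), where all probe sets also gave 0 (2474 and 4964 unadjusted, lowest adjusted p 0.155 and 0.0515), against 7 members and 1643 probe sets. Leaving out 1 pool gave 4 to 5 members and 406 to 1424 probe sets. Cyclic loess gave 5 members, 9 passed without the dimmest 25% of probe sets (DNAJA1 and HSPH1 added) or with the mean of all probe sets of a gene (HSPH1 and PDIA3 added), and 8 by updated symbol alone. The series matrix values and the trended, robust fit gave the same 7. The replicate block gave 7 members (PPIA out, DNAJA1 in) and 1790 probe sets. Deviations of equal-numbered pools correlated at 0.243, 0.090, 0.072 and 0.221. Of the equal-numbered pools, only those of number 1 were each other's best match. Non-lactating pool 2 correlated more with lactating pool 1 (0.157) and non-lactating pool 4 more with lactating pool 3 (0.236). No label says that equal numbers share animals, so the numbers were not taken to pair the pools. The median of the 24 stayed positive throughout, from 0.17 with the covariate to 0.34 without lactating pool 3. Signs turned with the covariate for DNAJB1 (-0.23), HSP90AA1 (-0.031), HSP90AB1 (-0.024), HSPB1 (-0.37) and HSPB8 (-0.078), and for HSPB1 with cyclic loess (-0.017) and with single pools left out (-0.097 to 0.080). The covariate difference was larger than the main one for PPIF (0.81), FKBP7 (0.63), DNAJC3 (0.40), PDIA3 (0.34) and PDIA6 (0.14). It was 0.28 for PPIA and for PPID, 0.36 for FKBP4 and -0.30 for HSPB6. The cause was not tested. The covariate does not overlap between the groups, and how much of its shift belongs to lactation was not tested.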

Other observations

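Some heat shock transcripts fall outside the symbol rule because the deposited table gives them other names. They were picked by their titles after values were seen. HSP70.2, the porcine stress-inducible HSP70, was read by 3 probe sets. The brightest gave 10.65, 10.95, 11.91 and 11.17 in non-lactating and 11.78, 11.69, 13.01 and 13.02 in lactating pools, with lactating pools 3 and 4 well above the others and non-lactating pool 3 above 2 lactating pools. Its difference was 1.21 ± 0.36 (limma, adjusted p = 0.0765), and the other probe sets gave 1.08 ± 0.39 (limma, adjusted p = 0.13) and 0.37 ± 0.32 (limma, adjusted p = 0.556). LOC100524210, titled as like heat shock cognate 71 kDa protein, read 12.44, 12.66, 12.75 and 12.82 against 12.85, 12.80, 13.29 and 13.39, again with lactating pools 3 and 4 highest, and differed by 0.42 ± 0.15 (limma, adjusted p = 0.122). A second, dim LOC100524210 probe set, with group means of 4.83 and 4.81, gave -0.01 ± 0.09 (limma, adjusted p = 0.955). LOC100154783, titled peptidylprolyl isomerase B, a cyclophilin of the ER, read 11.87, 12.06, 12.06 and 11.84 against 12.57, 12.54, 12.22 and 12.34. It did not overlap between the groups, peaked in lactating pool 1 and rose by 0.46 ± 0.10 (limma, adjusted p = 0.0284). BAG3, a cochaperone of HSP70 induced by stress, read 8.91, 9.04, 9.64 and 8.96 against 10.43, 9.58, 9.59 and 10.36, with lactating pools 1 and 4 high and the other lactating pools just below non-lactating pool 3, a difference of 0.85 ± 0.23 (limma, adjusted p = 0.0580).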
